A study of Xenopus laevis with 46 samples.

Results

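The cytosolic ribosomal protein genes of Xenopus laevis were followed in RNA captured by a label for new transcripts, from the 2 poles of the blastula, animal (AP) and vegetal (VP). Members were chosen by name alone: rpl or rps with a number and an L or S ending, rplp0 to rplp2, and rpsa, leaving out rps6 kinases and mitochondrial ribosomal proteins. The rule found 135 gene names among 49233 in the deposited table, 79 of the large subunit and 56 of the small subunit. Each name ends in .L or .S for the chromosome set, long or short, that carries it in this allotetraploid frog, and 58 of 77 base names were present as both copies. Of the 135 names, 131 are symbols of protein-coding genes in the RefSeq annotation of assembly Xenopus_laevis_v10.1.

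Wild-type embryos had been injected at the 1-cell stage with 10 nl of 50 mM 5-ethynyluridine (EU), to about 0.5 mM in the embryo, and kept at 22 °C. EU is a uridine analog that cells build into new RNA, which can then be linked to biotin and pulled out on streptavidin beads. The blastulae were cut into AP and VP pieces at 5, 6, 7, 8 and 9 hours post fertilization (hpf), and total RNA was captured for EU and depleted of ribosomal RNA. Experiment 1 holds 3 biological replicates per region and time, from 3 clutches, in 30 libraries. Experiment 2 holds 2 technical replicates of 1 clutch per region at 6 to 9 hpf, in 16 libraries, and supports no test. Every group shared the EU injection, and no library of embryos without EU is among the 46 analysed here, so the unlabelled RNA carried through the capture was not measured.

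A eukaryotic ribosome joins a small subunit, which reads the mRNA, to a large subunit, which forms the peptide bond. Their proteins are made in matched amounts, and most of their mRNAs begin with a terminal oligopyrimidine stretch that places their translation under growth control. The Xenopus oocyte stores ribosomes on a large scale, and embryos that cannot make ribosomal RNA live on that store into tadpole stages. Maternal ribosomal protein mRNAs are also stored, so steady-state RNA says little about new transcription at these stages. Transcription from most of the embryo's own genes starts in the blastula, at the midblastula transition.

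Library totals ran from 1783721 to 3273514 normalised read counts over all genes, and 4137 to 21140 genes were above 0. In experiment 1 the summed value of 10 vegetal marker genes lay between 316 and 1534 in AP and between 7175 and 14897 in VP, with no overlap. Among these markers, grip2.L already read 2667, 1965 and 1460 in VP at 5 hpf, and 2052, 986 and 3264 at 9 hpf. How much of the marker reads was stored RNA was not measured. The 9 vegetal markers that could be tested were higher in VP when averaged over time and 7 were called. The 10 testable animal pole and ectoderm markers were lower and 1, the keratin gene krt70.S, was called. The summed value of the animal pole and ectoderm markers did overlap in experiment 1, at 678 to 18603 in AP and 1 to 4338 in VP. One VP library at 8 hpf, replicate 2, had 4137 genes above 0, the fewest of all. One VP library at 5 hpf, replicate 2, gave 17.7% of its total to 1 entry. In experiment 2 the VP libraries at 7 hpf had 7306 and 4364 genes above 0. The summed shares, the median differences and the calls that moved without the first pair of these libraries are given both ways.

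Reads of ribosomal protein genes were present in every library, from 5 hpf on, and were a small share of the captured RNA. How much of them was new RNA and how much unlabelled stored RNA was not measured. The 135 genes together made up 0.389% ± 0.0664 (SD, n = 15) of a library's total in AP and 0.302% ± 0.0834 (SD, n = 15) in VP of experiment 1. The VP share was 0.313% ± 0.0756 (SD, n = 14) without the sparse library at 8 hpf and 0.300% ± 0.0862 (SD, n = 14) without the library dominated by 1 entry. These shares rest on normalised read counts that are not divided by transcript length, so values are compared between samples and not between genes.

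In AP the summed value by replicate was 9596, 9336 and 9301 at 5 hpf. At 6 hpf the AP sums were 7840, 8208 and 8740. They were 9871, 10020 and 10685 at 7 hpf. At 8 hpf the AP libraries gave 8734, 8400 and 6985, and those of 9 hpf gave 7259, 9377 and 8165. The SDs of the AP sums were 161, 452, 433, 929 and 1063 at 5, 6, 7, 8 and 9 hpf. AP at 7 hpf was the group with the highest mean, and its lowest library lay above every AP library at the other times.

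The VP sums had SDs of 1760, 2337, 1211, 2433 and 1990 in the same order. At 5 hpf they were 8382, 8153 and 5226. At 6 hpf the VP libraries gave 7114, 10894 and 6624, among them the highest sum of all 46. The values at 7 hpf were 7810, 5798 and 5636. AP and VP therefore did not overlap at 5 and 7 hpf and did overlap at 6 hpf. For 8 hpf the VP sums were 7330, 2781 and 6550, and for 9 hpf they were 8100, 5360 and 4229, both overlapping with AP. The low value of 2781 came from the sparse replicate 2, where 11 of the 135 genes were above 0.

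**Figure D1:**
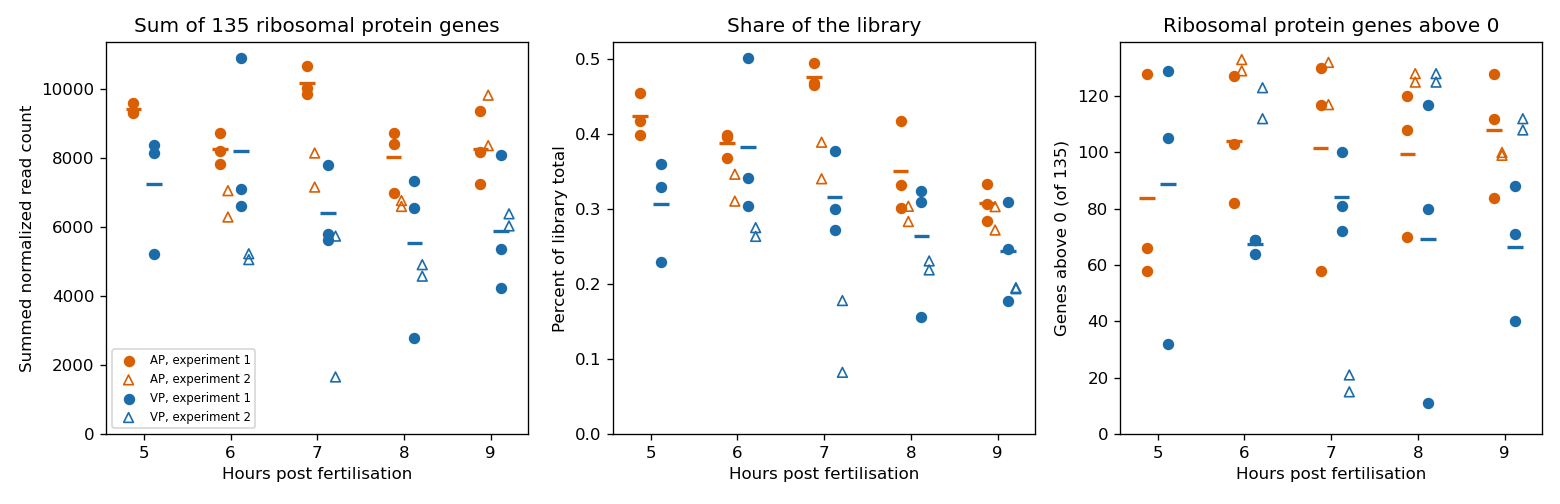
Panels from left to right show, against time in hpf, the summed value of the 135 ribosomal protein genes (normalised read counts), their percent of the library total, and how many of them were above 0; points are libraries of experiment 1 (filled) and experiment 2 (open triangles) by region, and bars are means of experiment 1. In the sums, AP libraries of experiment 1 sit between 6985 and 10685, and VP libraries between 2781 and 10894.

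As a share of the total, the AP mean was highest at 7 hpf and lowest at 9 hpf, and the VP mean was highest at 6 hpf and lowest at 9 hpf. AP held 0.423% ± 0.0288 at 5 hpf, 0.387% ± 0.0173 at 6 hpf, 0.476% ± 0.0159 at 7 hpf, 0.350% ± 0.0600 at 8 hpf and 0.308% ± 0.0246 at 9 hpf (SD, n = 3 each). VP held 0.306% ± 0.0681, 0.382% ± 0.105, 0.316% ± 0.0543, 0.263% ± 0.0932 and 0.244% ± 0.0656 at the same times (SD, n = 3 each). These sums are described and not tested.

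At the level of single genes the data were sparse. Of the 135 genes, 133 were above 0 in at least 1 library of experiment 1, and none was above 0 in all 30; the most often detected, rpl6.L, rpl6.S and rps20.L, reached 28. In 113 genes at least 15 of the 30 libraries were above 0. The number of ribosomal protein genes above 0 differed widely within groups. In AP at 5 hpf the sums stayed close, with 128, 58 and 66 genes for 9596, 9336 and 9301. In VP the library with the fewest genes above 0 had the lowest sum at 5, 7, 8 and 9 hpf. At 6 hpf the library with the fewest had the highest sum. At 5 hpf 105, 129 and 32 genes gave 8382, 8153 and 5226. At 6 hpf 69, 64 and 69 genes gave 7114, 10894 and 6624. At 7 hpf 81, 100 and 72 genes gave 7810, 5798 and 5636. At 8 hpf 117, 11 and 80 genes gave 7330, 2781 and 6550, and at 9 hpf 88, 71 and 40 gave 8100, 5360 and 4229. In the AP libraries at 5 hpf the detected genes averaged 75.0, 161 and 141 normalised read counts. What produced the zeros was not tested. A value of 0 in a table of this kind can be a failed estimate, so genes are described as listed at 0.

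**Figure D2:**
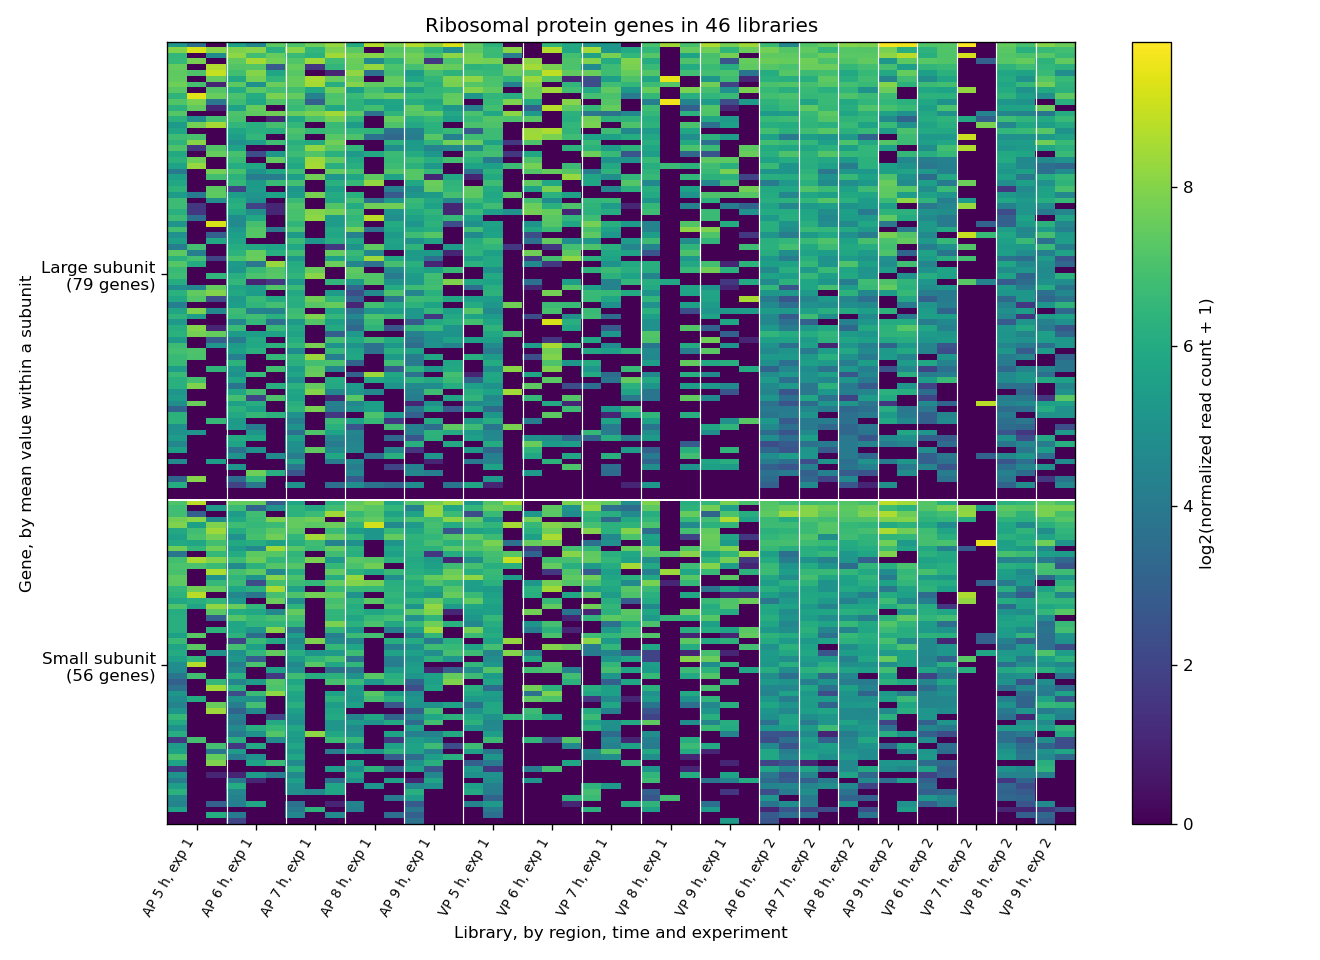
Values of the 135 ribosomal protein genes (rows, large subunit above small subunit) in the 46 libraries (columns, by experiment, region and time), coloured by log2(normalised read count + 1). Entries at 0 are scattered over the rows, and the VP library at 8 hpf with 11 genes above 0 appears as a nearly empty column.

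For tests, limma was fitted to log2(value + 1) over 19896 genes that reached 10 in at least 3 libraries of experiment 1, with Benjamini-Hochberg adjustment over all of them. A gene is called when its adjusted p is under 0.05. Log2 differences are on the log2(value + 1) scale, and their size depends on the added constant where a gene is listed at 0. For rpl22.L the VP minus AP difference averaged over the 5 times was -3.75 with 1 added and -2.04 with 10 added. All but 3 ribosomal protein genes, 132, passed this filter. The other 3 were rpl3l.L, rpl3l.S and rps27l.S. The rpl3l genes, whose mammalian counterpart is a muscle form of rpl3, were listed at 0 in all 46 libraries. The tested genes averaged between 5.27 and 167 normalised read counts over the 30 libraries, with a median of 52.1.

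Ribosomal protein genes leaned towards AP, without any single gene passing the test. Averaged over the 5 times, 120 of 132 (90.9%) had a VP minus AP difference below 0, against 70.8% of all tested genes. Their median difference was -1.10, with a median SE of 1.07, and the median over all tested genes was -0.47. Zero of the 132 were called, while 0.709% of all genes were. At an unadjusted p under 0.05, 18 were lower in VP, where 7.68% of all tested genes were, and 0 were higher, where 2.45% were. Counted in both directions, 10.1% of all genes had such a p. Small and large subunit genes leaned alike, with medians of -0.998 over 55 genes and -1.24 over 77 genes. The median moved between -1.34 and -0.51 over 15 settings, and the value nearest 0 came from adding each library's number of genes above 0 to the fit, where the median of all genes was -0.10. It was -0.91 against -0.29 for all genes without the sparse VP library, and -1.28 against -0.56 without the library dominated by 1 entry. VP libraries had 11665 ± 3587 genes above 0 (SD, n = 15) and AP libraries 13440 ± 3474 (SD, n = 15), and the part this plays in the lean was not tested beyond that setting. In such tissue pieces, fewer transcribing cells, less new RNA per cell and unequal carry-over of unlabelled stored RNA cannot be told apart.

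By time, how far the medians leaned depended on single libraries. The median difference between VP and AP was -0.08 at 5 hpf, -1.64 at 6 hpf, -1.05 at 7 hpf, -1.54 at 8 hpf and -1.78 at 9 hpf, with a median SE of 2.38 at each time. The medians over all tested genes were 0.01, -0.59, -0.09, -0.91 and -0.53. Without the 5 hpf VP library dominated by 1 entry the 5 hpf median was -0.87, against 0 for all genes. Without the sparse VP library the 8 hpf median was -0.14, against 0 for all genes. Leaving out each replicate number in turn gave medians of -1.05 to 0.68 at 5 hpf, -1.97 to -0.64 at 6 hpf, -2.24 to -0.42 at 7 hpf, -2.29 to -0.39 at 8 hpf and -2.60 to -1.54 at 9 hpf. With each library's number of genes above 0 in the fit, the medians were -0.65, -0.64, -0.93, -0.26 and -0.97 in order of time, so a lean that began at 6 hpf is not shown. The ribosomal protein genes with a difference below 0 numbered 70, 91, 90, 96 and 104 of 132 in that order. Among all genes the shares below 0 were 40.2%, 59.5%, 52.1%, 65% and 60.7%. Whether the region difference itself changed between 5 and 9 hpf was tested as an interaction: 0 of 132 were called, 0 of all genes (0%) were, and 6 ribosomal protein genes had an unadjusted p under 0.05, where 5.24% of all genes did. The median interaction was -1.60 against -0.87 over all genes, and without the 5 hpf VP library dominated by 1 entry it was -0.56 against -0.43.

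Zero of 132 were called between the regions at any time. The corresponding shares of all genes were 0.0955% at 5 hpf, 0.0251% at 6 hpf, 0.0101% at 7 hpf, 0% at 8 hpf and 0.377% at 9 hpf. At an unadjusted p under 0.05, 4 ribosomal protein genes differed at 5 hpf, 3 higher and 1 lower in VP, where 4.29% of all genes did. At 6 hpf 13 did, 1 higher and 12 lower, with 6.36% of all genes. At 7 hpf 9 did, 1 higher and 8 lower, with 3.48% of all genes. At 8 hpf 4 did, all lower, with 6.78% of all genes, and at 9 hpf 9 did, all lower, with 7.19%.

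Counts of genes whose groups of 3 libraries did not overlap were as follows. VP lay wholly below AP for 2, 12, 16, 10 and 12 ribosomal protein genes at 5, 6, 7, 8 and 9 hpf, where the shares among all genes were 3.15%, 5.72%, 4.1%, 5.4% and 5.7%. It lay wholly above AP for 2, 3, 2, 1 and 1 of them, with shares of 3.16%, 2.5%, 3.04%, 1.59% and 3.56% among all genes.

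**Figure D3:**
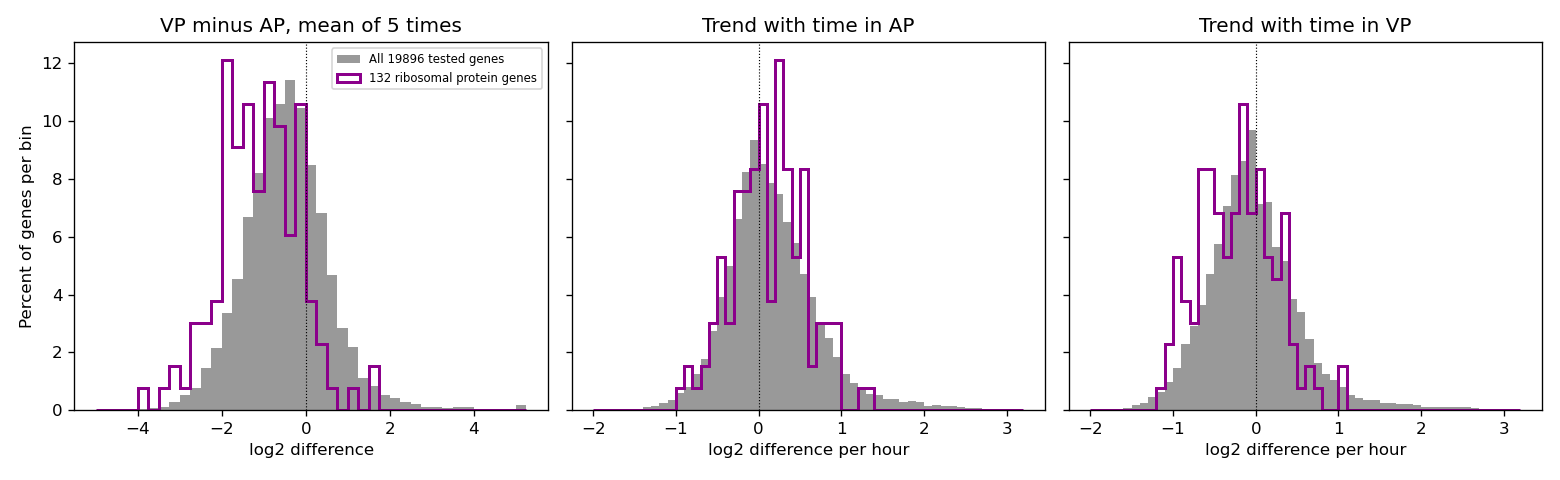
Distribution of log2 differences over the 132 tested ribosomal protein genes and over all 19896 tested genes, as the percent of genes per bin (vertical axis), for the averaged VP against AP comparison and for the trends per hour in AP and VP; values beyond the axis are gathered in the outermost bins. In the region comparison the ribosomal protein genes are centred at -1.10 and all genes at -0.47, while in the AP trend the medians are 0.10 for both.

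The gene with the smallest p between the regions was rpl22.L, a large subunit protein that is dispensable for translation in mouse and needed there for T cell development. In AP it read 108, 0 and 87 at 5 hpf, 72, 125 and 154 at 6 hpf, 84, 265 and 0 at 7 hpf, 147, 139 and 15 at 8 hpf, ending with 41, 110 and 0 at 9 hpf. In VP they were 0, 63 and 0, then 0, 0 and 0, then 0, 78 and 51, then 20, 0 and 0, and at 9 hpf 0, 0 and 0. It was thus above 0 in 12 of 15 AP libraries and in 4 of 15 VP libraries, and the groups did not overlap at 6 hpf. The averaged difference was -3.75 ± 1.08 (SE), with limma's adjusted p at 0.0720, so it was not called. The gene was called in the same comparison when 10 rather than 1 was added (-2.04, adjusted p = 0.0394) and without the 5 hpf VP library dominated by 1 entry (-4.15, adjusted p = 0.0370). In experiment 2 the regions overlapped at 6, 8 and 9 hpf: AP gave 51 and 44, 91 and 47, 62 and 34, and 0 and 30 at 6 to 9 hpf, while VP gave 69 and 48, 0 and 0, 49 and 8, and 26 and 75. The region annotated as rpl22.L overlaps the gene rnf207.L, so reads of both may be mixed. Its other copy, rpl22.S, had an averaged difference of -0.84 ± 1.09 (SE, adjusted p = 0.829).

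Next by p were rps26.S and rps6.L. Rps26 sits at the mRNA exit channel of the small subunit. In AP rps26.S read 68, 0 and 0, then 15, 32 and 146, then 43, 282 and 56, then 31, 0 and 50, and 18, 20 and 61 at 9 hpf. Over the 5 times VP gave 0, 44 and 0, then 0, 0 and 0, then 0, 10 and 0, then 28, 0 and 0, and 0, 20 and 0. The groups did not overlap at 6 and 7 hpf, and the averaged difference was -3.26 ± 1.04 (SE, adjusted p = 0.157). Without replicate 2 this gene was called, with a difference of -4.46 (adjusted p = 0.0486). In experiment 2 the regions overlapped for rps26.S at 6 hpf (AP 5 and 5, VP 7 and 4) and 9 hpf (AP 68 and 36, VP 0 and 61). They did not overlap at 7 and 8 hpf. The other copy, rps26.L, went the other way in experiment 1, with an averaged difference of 1.63 that was not called. Its experiment 1 means were 61.7 in AP and 129 in VP. In experiment 2 they were 69.5 in AP and 56.25 in VP, so this direction was not kept.

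Rps6 is the small subunit protein phosphorylated by S6 kinases downstream of mTOR. Its L copy read 7, 0 and 92 in AP at 5 hpf, 21, 41 and 150 at 6 hpf, 53, 0 and 120 at 7 hpf, 96, 35 and 84 at 8 hpf, ending with 8, 45 and 237 at 9 hpf. The VP values were 0, 55 and 0, then 0, 0 and 79, then 0, 7 and 54, then 0, 0 and 0, and 0, 85 and 0. VP lay wholly below AP at 8 hpf and overlapped it at the other times. The averaged difference of rps6.L was -3.12 ± 1.08 (SE, adjusted p = 0.226), and that of rps6.S was -0.76 ± 1.09 (SE, adjusted p = 0.847).

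Over time, 1 ribosomal protein gene was called. In AP, 0 of 132 ribosomal protein genes were called at 6, 7, 8 or 9 hpf against 5 hpf, where the shares of all genes were 0%, 0.0101%, 0.0653% and 1.72%. Unadjusted p-values under 0.05 were found for 3, 8, 3 and 2 of them, with 3.45%, 3.88%, 6.75% and 10.3% of all genes. In VP, 0 were called at those times, with shares of 0.0101%, 0.00503%, 0.00503% and 1.25% among all genes. The unadjusted counts in VP were 5, 3, 6 and 2, with 4.93%, 2.43%, 6.36% and 8.86% of all genes. At 9 hpf in AP, 2 of 132 ribosomal protein genes and 10.3% of all genes were past that threshold, and the difference between them was not tested. These comparisons share the 5 hpf libraries within each region.

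As a slope per hour, the AP trend had 0 called among the 132 and 3.33% among all genes, and 4 had an unadjusted p under 0.05, against 11% of all genes. The median slope was 0.10 per hour for both, and with the number of genes above 0 in the fit it was -0.19 against -0.09. In VP 0 were called, against 1.85% of all genes, and 5 had an unadjusted p under 0.05, against 9.69%. The VP median slope was -0.22 per hour against -0.07 for all genes. It was -0.06 against 0.01 without the 5 hpf VP library dominated by 1 entry, -0.14 against 0.01 without the sparse VP library, and 0.09 against 0.07 without replicate 2 altogether. The difference between the slopes had 0 called, 0% of all genes, and 6 at an unadjusted p under 0.05, against 5.14%. Averaged over both regions, 1 ribosomal protein gene was called, rpl23a.S, against 5.39% of all genes, and 4 had an unadjusted p under 0.05, against 14.3%. This averaged trend was not among the planned comparisons and was chosen with the data in view.

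Rpl23a lies at the exit of the peptide tunnel, where new chains meet the signal recognition particle. In AP rpl23a.S read 36, 11 and 0 at 5 hpf and 46, 23 and 164 at 6 hpf. It read 130, 201 and 304 at 7 hpf, 63, 421 and 229 at 8 hpf, ending with 405, 296 and 607 at 9 hpf. AP at 9 hpf lay wholly above AP at 5 and 6 hpf and overlapped AP at 7 and 8 hpf. In VP the values began at 174, 81 and 0 for 5 hpf, then 0, 87 and 62 at 6 hpf, 33, 35 and 0 at 7 hpf, 128, 336 and 122 at 8 hpf, ending with 385, 223 and 342 at 9 hpf. VP at 9 hpf also lay above every VP library at 5, 6 and 7 hpf. The gene rose by 1.19 ± 0.32 per hour on the log2 scale (SE, limma adjusted p = 0.00857). By region the slopes were 1.32 ± 0.46 in AP (adjusted p = 0.0970) and 1.06 ± 0.46 in VP (adjusted p = 0.342). The call of the averaged slope was lost without replicate 1 (adjusted p = 0.0621) and without replicate 3 (adjusted p = 0.269).

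Experiment 2 gave higher values for rpl23a.S at the end in AP: 101 and 22 at 6 hpf, 139 and 181 at 7 hpf, 260 and 234 at 8 hpf, ending with 817 and 778 at 9 hpf. In VP it gave 141 and 149, 896 and 0, 180 and 123, and 257 and 193. The pair of 896 and 0 came from the sparse VP libraries at 7 hpf. Its other copy, rpl23a.L, had slopes that were not called, 0.18 ± 0.48 per hour in AP (adjusted p = 0.970) and -0.61 ± 0.48 in VP (adjusted p = 0.755). In AP rpl23a.L read 170, 0 and 175 at 5 hpf and 57, 87 and 234 at 9 hpf. In VP it read 275, 128 and 85 at 5 hpf and 36, 109 and 1 at 9 hpf. The difference between the slopes of the copies was not tested. The annotated span of rpl23a.S holds 4 snoRNA genes and overlaps rab34.S, which was listed at 0 in 29 of the 30 libraries and at 10 in the other one.

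**Figure D4:**
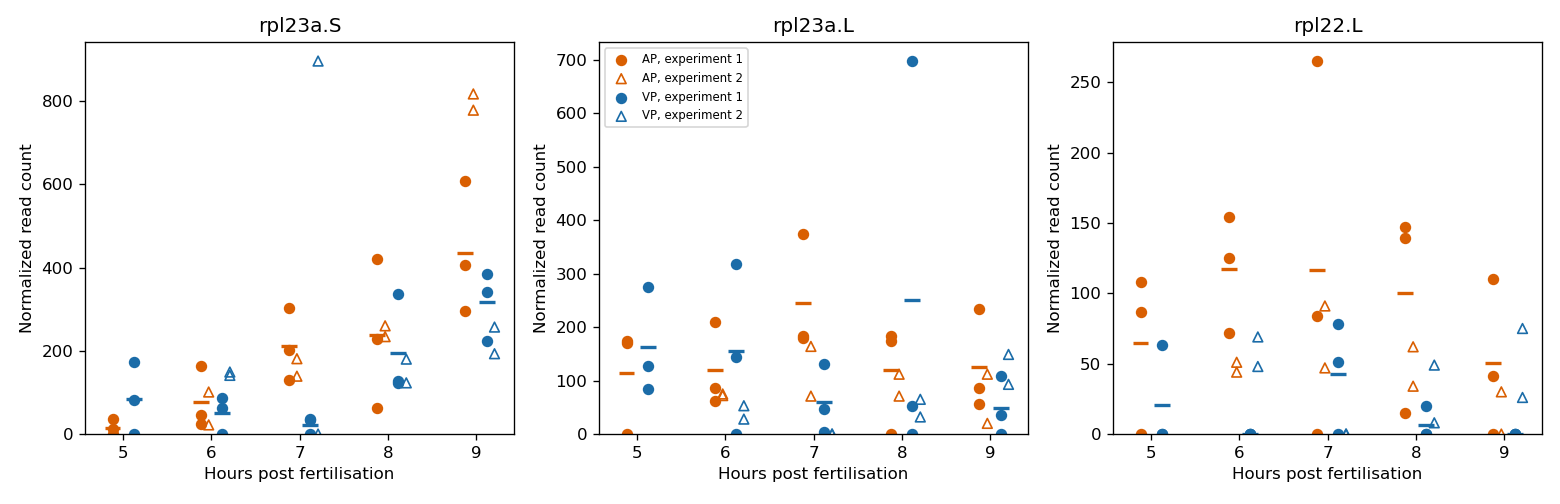
Normalised read counts of rpl23a.S, rpl23a.L and rpl22.L (vertical axes, scaled per gene) against time in hpf, by region; points are libraries of experiment 1 (filled) and experiment 2 (open triangles), and bars are means of experiment 1. Rpl23a.S reaches 296 to 607 in AP and 223 to 385 in VP at 9 hpf of experiment 1, and rpl22.L is at 0 in 11 of 15 VP libraries of experiment 1.

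Other genes with small p-values for a slope were low or scattered. Rpl27a.L, a large subunit protein, was above 0 in 5 AP libraries, at 8 and 258 at 5 hpf, 10 and 87 at 6 hpf, and 6 at 8 hpf. Its AP slope was -0.98 ± 0.35 per hour (SE, adjusted p = 0.113), and in VP it was above 0 in 1 library, at 38. Rpl38.S, whose mouse counterpart is needed for translation of a subset of Hox mRNAs, read 67, 0 and 0 in AP at 5 hpf and 39, 104 and 242 at 9 hpf. Its AP slope was 1.21 ± 0.55 per hour (SE, adjusted p = 0.339). Rps20.L, a protein of the small subunit head, read 111, 86 and 358 in VP at 5 hpf and 78, 89 and 0 at 9 hpf, with a VP slope of -0.95 ± 0.43 (SE, adjusted p = 0.406). The annotated span of rps20.L overlaps LOC121394492, so reads of both may be mixed.

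The 5S particle proteins rpl5 and rpl11 bind 5S ribosomal RNA together and bring it into the large subunit. Rpl5.L had the highest mean of the 135 genes, 167 normalised read counts. At 5 hpf its AP values were 249, 600 and 257 and its VP values 161, 103 and 268. At 9 hpf AP gave 162, 87 and 30 and VP 200, 85 and 185, so the regions overlapped at both times. The averaged difference of rpl5.L was -0.74 ± 0.86 (SE, adjusted p = 0.809). Rpl5.S was above 0 in 15 of 15 AP libraries, with a range of 19 to 656 and a median of 131. In VP it was above 0 in 11 of 15, with a range of 0 to 178 and a median of 72. Its difference was -2.40 ± 0.96 (SE, adjusted p = 0.344). Rpl11.L and rpl11.S had differences of -2.22 ± 1.10 (SE, adjusted p = 0.479) and -1.72 ± 1.02 (SE, adjusted p = 0.571). The VP library at 8 hpf with 11 genes above 0 listed rpl11.S at 770, the highest single value of any ribosomal protein gene in experiment 1, and rpl11.L at 0.

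The stalk proteins rplp0, rplp1 and rplp2 form the arm of the large subunit that recruits the translation GTPases. All 5 stalk genes had an averaged difference below 0, from -2.20 to -0.37, as did most ribosomal protein genes and 70.8% of all tested genes. Of the 5, 0 were called, against 0.709% of all genes. Rplp1.L read 83, 266 and 0 in AP at 5 hpf and 40, 86 and 208 at 9 hpf. In VP it read 195, 48 and 2 at 5 hpf and 11, 0 and 0 at 9 hpf, so that AP lay above VP at 9 hpf. Its averaged difference was -2.20 ± 1.10 (SE, adjusted p = 0.481). Rplp0.L read 41, 60 and 0 in VP at 5 hpf and 0, 0 and 0 at 9 hpf, with a slope of -1.14 ± 0.55 per hour that was not called (SE, adjusted p = 0.462). In AP rplp0.L gave 75, 117 and 3 at 5 hpf and 42, 11 and 0 at 9 hpf.

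Rpl3 and rpl10 reach towards the peptidyl transferase centre and the tRNA sites. Rpl3.L read 89, 0 and 26 in AP at 5 hpf, 283, 112 and 177 at 6 hpf, 98, 76 and 342 at 7 hpf, 225, 263 and 177 at 8 hpf, ending with 209, 130 and 277 at 9 hpf. In VP it read 216, 96 and 17, then 0, 0 and 114, then 49, 224 and 88, then 148, 0 and 50, and 122, 217 and 0 at 9 hpf. AP lay wholly above VP at 8 hpf and not at the other times, and the averaged difference was -1.89 ± 0.96 (SE, adjusted p = 0.494). In experiment 2, rpl3.L ran from 140 to 427 in the 8 AP libraries and from 0 to 557 in the 8 VP libraries, so the regions overlapped, and the ends of the VP range came from the sparse libraries at 7 hpf. The copies rpl10.L and rpl10.S had differences of -0.74 ± 1.10 (SE, adjusted p = 0.853) and -1.997 ± 1.08 (SE, adjusted p = 0.534). Rpl24, which forms a bridge between the subunits, had differences of 0.07 ± 1.10 for the L copy (SE, adjusted p = 0.988) and -0.52 ± 1.09 for the S copy (SE, adjusted p = 0.900).

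Among small subunit genes, rps3 lines the mRNA entry. Rps3.L ranged from 0 to 337 in AP with a median of 95 and from 0 to 178 in VP with a median of 68, and its difference was -0.66 ± 1.02 (SE, adjusted p = 0.861). Rps14 sits on the platform. Rps14.L was listed at 0 in all 3 AP libraries at 6 hpf and in all 3 VP libraries at 7 and at 9 hpf. The largest value of rps14.L in AP was 81, and its AP slope of 0.92 ± 0.47 per hour was not called (SE, adjusted p = 0.453).

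Rps27a is made fused to ubiquitin. Its copy rps27a.L ranged from 0 to 306 in AP and from 0 to 281 in VP, with a difference of -0.66 ± 1.01 (SE, adjusted p = 0.859). Rpsa, related to the laminin receptor precursor, had S copy values of 114, 367 and 244 in AP at 5 hpf and 59, 41 and 1 at 9 hpf. In VP rpsa.S gave 28, 109 and 496 at 5 hpf and 83, 218 and 2 at 9 hpf. Its averaged difference was -1.49 ± 0.96 (SE, adjusted p = 0.607).

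Among the 10 genes with the highest mean values were rpl5.L, rpl23a.S, rpl23a.L, rpl6.S, rpl6.L, rpl4.S, rps20.L, rpl3.L and rpl4.L, 8 of them of the large subunit. Longer transcripts collect more reads, so this is not an order of molar abundance. Rpl6.S was 1 of 12 tested genes with an averaged difference above 0, at 0.54 ± 0.89 (SE, adjusted p = 0.870). Its VP values ran from 0 to 465 with a median of 125, and its AP values from 0 to 498 with a median of 118. Rpl4, whose loop lines the peptide tunnel, had AP values of 1 to 357 with a median of 167 for rpl4.L and 0 to 359 with a median of 140 for rpl4.S. In VP rpl4.L ran from 0 to 230 with a median of 90, and rpl4.S from 0 to 271 with a median of 132. The regions thus overlapped widely in both copies of rpl4.

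Over all pairs the L and S subgenomes held similar shares. For 57 pairs with a mean of at least 10 for both copies together, the L copies held 48.8% of the summed value in experiment 1 and 47.7% in experiment 2. The median L share of a pair was 48.8% in experiment 1 and 52.0% in experiment 2. Across pairs the L share had a Spearman rho of 0.585 between the experiments (57 pairs, the same annotation and read assignment, given as a description). In 40 of 57 pairs the L share lay on the same side of 50% in both experiments, and in 22 it did so in replicates 1, 2 and 3 of experiment 1. Reads that match both copies are divided between them by the quantification, so shares of similar copies are uncertain.

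Pairs at the low end were rps19, rps25, rps3a, rps12 and rpl31. Rps19, mutated in human Diamond-Blackfan anemia, had an L share of 17.1% in experiment 1 and 11.4% in experiment 2, with means of 15.8 for L and 76.9 for S in experiment 1. By replicate of experiment 1 its L share was 30.9%, 4.54% and 8.69%. Rps25, used by several viral internal ribosome entry sites, had L shares of 22.0% and 11.02% in the experiments, and 20.8%, 17.9% and 29.3% by replicate. Rps3a stood at 22.8% and 36.6%, and rps12 at 23.7% and 28.5%. Rpl31 did not keep its side, at 28.7% in experiment 1 and 67.6% in experiment 2.

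At the high end, rps27l had an L share of 86.4% in experiment 1 and 86.1% in experiment 2, on low means of 12.03 for L and 1.90 for S. Rpl37 stood at 80.2% and 71.7%, rps26 at 75.6% and 77.9%, and rps20 at 69.1% and 65.9%. These pairs stayed above 50% in both experiments. Rps20 by replicate gave 68.0%, 74.1% and 65.1%. The L share of rpsa crossed 50%, at 30.02% in experiment 1 and 60.8% in experiment 2.

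**Figure D5:**
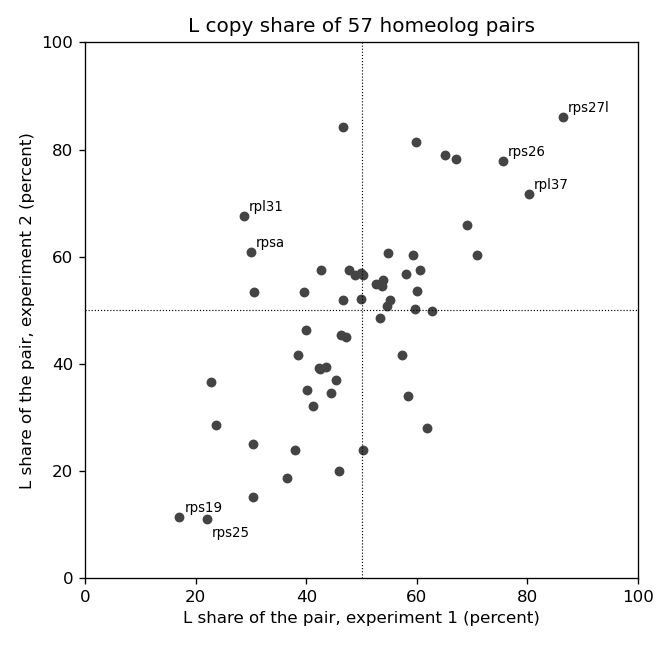
L copy's share of the summed value of each pair (percent) in experiment 1 (horizontal axis) and experiment 2 (vertical axis), for 57 pairs of ribosomal protein genes; each point is 1 pair, and lines mark an even share. Rps19 and rps25 lie at the low end and rps27l, rpl37 and rps26 at the high end in both experiments.

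Introns of ribosomal protein genes often house snoRNAs, which guide the modification of ribosomal RNA. In the RefSeq annotation, 46 of the 131 matched genes have at least 1 snoRNA gene in their span, 123 snoRNA genes in all and up to 6 in a gene. None of these snoRNA genes has an entry under its RefSeq symbol in the deposited table, and entries under other names were not searched for. The 46 hosts had a median region difference of -1.26, and the 82 tested genes without a snoRNA gene -1.01. Median slopes were 0.21 and 0.09 per hour in AP, and -0.23 and -0.22 per hour in VP. The difference between hosts and the rest was not tested.

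Genes that work with the ribosomal proteins were compared by counts. Fau and rack1 encode further parts of the small subunit: Rps30 fused to a ubiquitin-like protein, and a scaffold. Their copies had 0 calls in the region and trend comparisons. The averaged region difference of fau.L was -0.83 ± 1.08 (SE, adjusted p = 0.830) and that of rack1.S was -1.34 ± 1.04 (SE, adjusted p = 0.681). Fau.S read 64, 0 and 0 in AP at 5 hpf and 94, 61 and 129 at 9 hpf, with a difference of 4.51 ± 2.43 (SE, adjusted p = 0.547). Of 29 other genes with a terminal oligopyrimidine start, 28 were tested, with a median region difference of -0.83 and 0 calls between the regions. Ribosome biogenesis factors (54 tested of 56) had a median of -0.44 and 0 calls, and RNA polymerase I and its factors (9 tested of 10) a median of -0.06 and 0 calls. Of 107 mitochondrial ribosomal protein genes, 89 were tested, with a median of -0.73 and 0 calls. Over all tested genes the median region difference was -0.47 and 0.709% were called, so 0 calls in lists of this size is not a result about them.

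Of the other terminal oligopyrimidine genes 3 were called in the trend averaged over both regions, where 5.39% of all tested genes were. In the AP trend, the VP trend and AP at 9 against 5 hpf, the shares of all genes were 3.33%, 1.85% and 1.72%. The difference from the ribosomal protein list was not tested. Both copies of eef1a1, the elongation factor that delivers aminoacyl-tRNA to the ribosome, rose in AP and in the trend averaged over both regions, and eef1a1.L also rose in VP, by 1.39 ± 0.33 per hour (SE, limma adjusted p = 0.00445). Eef1a1.S read 324, 402 and 0 in AP at 5 hpf and 1593, 5050 and 2473 at 9 hpf, with a difference of 5.74 ± 1.44 (SE, limma adjusted p = 0.0136). Eef1a1.L read 209, 0 and 409 in AP at 5 hpf and 1147, 3912 and 2581 at 9 hpf, with a difference of 5.68 ± 1.48 (SE, adjusted p = 0.0183). The AP groups at 5 and 9 hpf did not overlap for either copy. Hnrnpa1.S, an RNA-binding protein, rose by 0.49 ± 0.15 per hour averaged over both regions (SE, adjusted p = 0.0200). Over the same hours rpl23a.S was the 1 ribosomal protein gene called.

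Experiment 2, from 1 clutch, had higher sums in AP than in VP, while the sums of experiment 1 overlapped between the regions at 6, 8 and 9 hpf. The sums of the 135 genes in AP came to 7057 and 6293 at 6 hpf, 8149 and 7161 at 7 hpf, 6600 and 6771 at 8 hpf, ending with 9826 and 8363 at 9 hpf. In VP they were 5228 and 5058, 5740 and 1656, 4911 and 4578, and 6386 and 6035. AP lay above VP at each time. As a mean share of the library total, AP held 0.328%, 0.364%, 0.293% and 0.287% in order of time (n = 2 each). The AP share was thus lowest at 9 hpf, where the AP sums were highest. Library totals in AP differed as well, with 3244010 and 3077580 at 9 hpf against 2039417 and 2028603 at 6 hpf. VP held 0.269%, 0.130%, 0.225% and 0.194% in the same order (n = 2 each). The VP libraries at 7 hpf had 21 and 15 ribosomal protein genes above 0, and the other libraries of the experiment 99 to 133. The mean of the AP libraries exceeded that of the VP libraries for 99 of 132 tested genes in experiment 1, where 59.1% of all tested genes did. In experiment 2 it did so for 111, where 61.6% of all genes did, and without 7 hpf for 102, where 54.3% did. For 84 genes AP was higher in both experiments, with 7 hpf of experiment 2 included. The matching share of all tested genes was not computed, so no agreement gene by gene is read from this count. Mean values of the 135 genes had a Spearman rho of 0.794 between the experiments, as a description of genes that share annotation and quantification.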

How the data were processed

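The measurement was RNA-seq of EU-captured RNA from AP and VP pieces of wild-type blastulae, in 46 libraries. Per the submitters' processing notes, reads were quantified with Salmon 0.12.0 and normalized with DESeq2, and the authors deposited 1 table of whole-number values, treated here as a score because it holds normalized and rounded read counts, not raw counts. The genome build, annotation and DESeq2 version were not given in the sources used here. Because counts cannot be recovered, no interval for counting error is given.

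The ribosomal protein genes and the gene lists were chosen with earlier results of these data known. Of 50489 rows, those with the same gene name were summed to 49233 names; the rule matched 140 rows and 135 names. Named genes are those called, the 10 highest means, the 3 smallest p-values per averaged region or single-region trend comparison, a set chosen by role, genes at 0 throughout, the 5 most unequal pairs at each end, and called genes of other lists; a few of these genes are not reported here.

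limma 3.58.1 (R 4.3.3) was fitted to log2(value + 1) with 1 coefficient per region and time over the 30 libraries of experiment 1, with a mean trend, robust settings and two-sided tests, for genes at 10 or more in at least 3 libraries. P-values were Benjamini-Hochberg adjusted within each comparison over 19896 genes. The code was tested on simulated data. The labels give the replicates of experiment 1 as 3 clutches but do not tie a clutch to the same number in both regions. Libraries with equal numbers correlated only weakly in their deviations, which does not decide whether they are paired. Alternatives changed the scaling, the added constant, the filter, the libraries, the covariates and the spread estimate. RefSeq's annotation of Xenopus_laevis_v10.1 gave symbols, snoRNA genes and overlaps; reads of overlapping genes and of near-identical L and S copies may be mixed.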

Additional observations from a re-analysis of the deposited data

How the results depend on the processing

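Over the comparisons and the summed shares, 298 alternative values were within 1.5 times the main count of calls or, for the shares, within 1 SD of the main value, and 11 counts of calls were not. The main count was 0 in every comparison but the trend averaged over both regions, and a main count of 0 was matched only by 0. Most of the 298 therefore set 0 against 0, and the tally says little of how stable a result is. It says nothing of the median differences, whose shifts stand beside them in the report. With 10 added in place of 1, rpl23a.S was called in AP at 9 against 5 hpf (1 gene, adjusted p = 0.0340, with 572 of all genes called) and in the AP trend (1 gene, adjusted p = 0.0156, with 779), and rpl22.L in the averaged region comparison (1 gene, with 230). Fitting only the groups compared called 6 genes lower in VP at 6 hpf, among them rpl14.L, rpl21.L, rpl22.L, rpl28.S and rps4x.L, where 296 of all 19896 genes were called against 5 in the shared fit. It called 1 in the AP trend, rpl23a.S (adjusted p = 0.0174), with 613 of all genes. These are named after their values were seen, and that fit takes the spread from fewer libraries. Without the 5 hpf VP library of replicate 2, which was chosen after the data were seen, 1 gene, rpl22.L, was called in the averaged region comparison, with 131 of all genes. Leaving out each replicate number in turn gave 0 to 1 calls there, with rps26.S called without replicate 2 (165 of all genes), and 0 to 1 calls in the trend over both regions, where rpl23a.S was lost without replicate 1 and without replicate 3. With the L and S copies summed, that trend had 0 calls. For single named genes 136 values stayed on the same side of the threshold, 6 passed it, 2 no longer did and 0 reversed. The added covariate, the simpler spread estimate and the averaged trend were also chosen after the data were seen.

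A replicate block moved the averaged region comparison from 0 to 1 called gene, rpl22.L (adjusted p = 0.0485), with 163 of all genes called. Whether equal numbers mark paired libraries is not known. Deviations from the group means correlated at -0.0237 to 0.103 for equal numbers (median 0.0279, 15 pairs of libraries). For unequal numbers they correlated at -0.113 to 0.0777 (median -0.0129, 30 pairs). Taking deviations within groups of 3 ties these values to each other, so they do not decide the pairing. Leaving the 100 largest entries out of the total gave shares of 0.453% in AP and 0.356% in VP. The median SE of 2.38 on the log2 scale in a comparison of 3 against 3 libraries limits what could be detected in genes of this level.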
